A study of Homo sapiens with 10 samples.

Results

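HCT116, an established human colorectal cancer line, was compared after knockdown of TEX10 and after infection with a control shRNA. The members are all genes measured in 6 of the 10 libraries of the series: 3 labelled TEX10_sh and 3 labelled shNC1, chosen by their labels. Of 57820 genes in the files, 17257 were expressed highly enough to be tested. The remaining libraries, of RELA knockdown cells (p65_sh, 2) and their own controls (shNC2, 2), were not part of the comparison. Values of shNC2 are given beside some results only, and their absence does not mean that the control groups agreed.

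Both groups were HCT116 cells of the same genetic background that had been infected with lentivirus for 24 h and then selected with puromycin for 3 days, so viral integration and drug selection are shared by the controls. TEX10_sh cells carried an shRNA against TEX10 and shNC1 cells a negative control shRNA. Which of the TEX10 shRNAs of the study was sequenced is not given in the sources used here, so effects of the hairpin beyond TEX10 could not be separated from those of the knockdown. No source used here states whether the replicates were separate cultures. The p-values therefore measure the spread between these libraries, which may be technical.

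TEX10 is a nuclear protein of the complex with PELP1, WDR18, LAS1L and SENP3, which acts on the precursor of the large (60S) ribosomal subunit. Ribosome assembly starts in the nucleolus, where RNA polymerase I transcribes the precursor rRNA and many factors and small nucleolar RNAs process and fold it. Free ribosomal proteins of the large subunit, RPL5 and RPL11 among them, can bind MDM2, the ubiquitin ligase that keeps p53 low.

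Levels are given in CPM, the reads of a gene relative to the scaled size of its library. Each library held between 28780200 and 44658105 reads, and a gene without reads could lie at up to 0.0678 to 0.105 CPM (the level of 3 reads; counting error only). Mitochondrial transcripts took 6.56 to 7.14% of reads. Pearson's r of log2 values across genes, which are not independent replicates, was 0.9972 to 0.9977 between libraries of the same group and 0.9901 to 0.9918 between groups. The epithelial markers EPCAM, CDH1, KRT8, KRT18 and KRT19 summed to between 3730 and 3848 CPM in shNC1 and between 4437 and 4514 CPM in TEX10_sh. Of 11 intestinal markers only CDX2 and HNF4A exceeded 1 CPM in every library, and CDX1 had no reads, so most of these 11 were low or absent. The mucin gene MUC12, which is not among them, was at 18.4, 17.9 and 21.3 CPM in shNC1. In TEX10_sh it was at 7.59, 7.19 and 7.53 CPM. Fibroblast markers summed to 40.3 to 45.2 CPM, nearly all from COL1A1, and immune and blood markers to 3.34 to 5.45 CPM, mostly from CD68, with CD3E at 0. Of 7 tested markers of fibroblasts, endothelium and immune cells 1 was lower and 1 higher. In a separate list of 20 epithelial and intestinal markers, which holds MUC12, 12 were tested. Of these, 2 were lower (HNF4A and MUC12) and 3 higher (CDH1, KRT8 and KRT19).

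TEX10 mRNA was at 74.9, 73.1 and 69.8 CPM in the shNC1 libraries and at 31.2, 32.2 and 32.2 CPM in the TEX10_sh libraries. The groups did not overlap, and the knockdown had 56.1% less mRNA on average (log2 fold change -1.18, SE 0.04, limma adjusted p = 1.32e-12). As the cells were measured in bulk, fewer cells expressing a gene and less RNA per cell cannot be told apart here or in any later result.

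Among the partners of TEX10, only SENP3, a SUMO protease that acts in rRNA processing, passed the test. It was at 61.6, 64.7 and 60.3 CPM in shNC1 and at 71.8, 68.3 and 69.2 CPM in TEX10_sh, a small rise without overlap between the groups (log2 fold change 0.16, limma adjusted p = 0.00134; 0.14 and no longer past the threshold without TEX10_sh replicate 1). LAS1L, WDR18, PELP1, MDN1 and NOL9, which act with TEX10 on the pre-60S particle, did not pass, with log2 fold changes from -0.12 to 0.17. These calls varied with the setting. Of the 7 genes with TEX10 included, 2 were higher when only genes averaging at least 5 CPM were tested. Without shNC1 replicate 3, 2 were lower, and without TEX10_sh replicate 1, 1 was still higher.

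Among the 17257 genes tested, 3272 (19.0%) had a lower and 3732 (21.6%) a higher level in TEX10 knockdown cells at a limma adjusted p under 0.01. Most of these differences were small. Among the 7004 called genes, 2758 (39.4%) differed by less than 1.2-fold, while 547 genes (3.17% of those tested) were lower and 409 (2.37%) higher by at least 1.5-fold, and 66 were lower and 85 higher by at least 2-fold. In 10121 genes (58.6%) the knockdown and control libraries did not overlap. The median log2 fold change of all tested genes was 0.002, with quartiles of -0.18 and 0.18. The counts of each list below are to be read against the shares of 19.0% lower and 21.6% higher, which depended on level. Among the 3452 tested genes of the highest mean level, 23.6% were lower and 36.7% higher. Among the 3452 of the lowest, 5.27% were lower and 3.24% higher. For lists of highly expressed genes, such as ribosomal proteins, the shares at the highest level are the closer comparison. The lists were not matched for level.

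**Figure D1:**
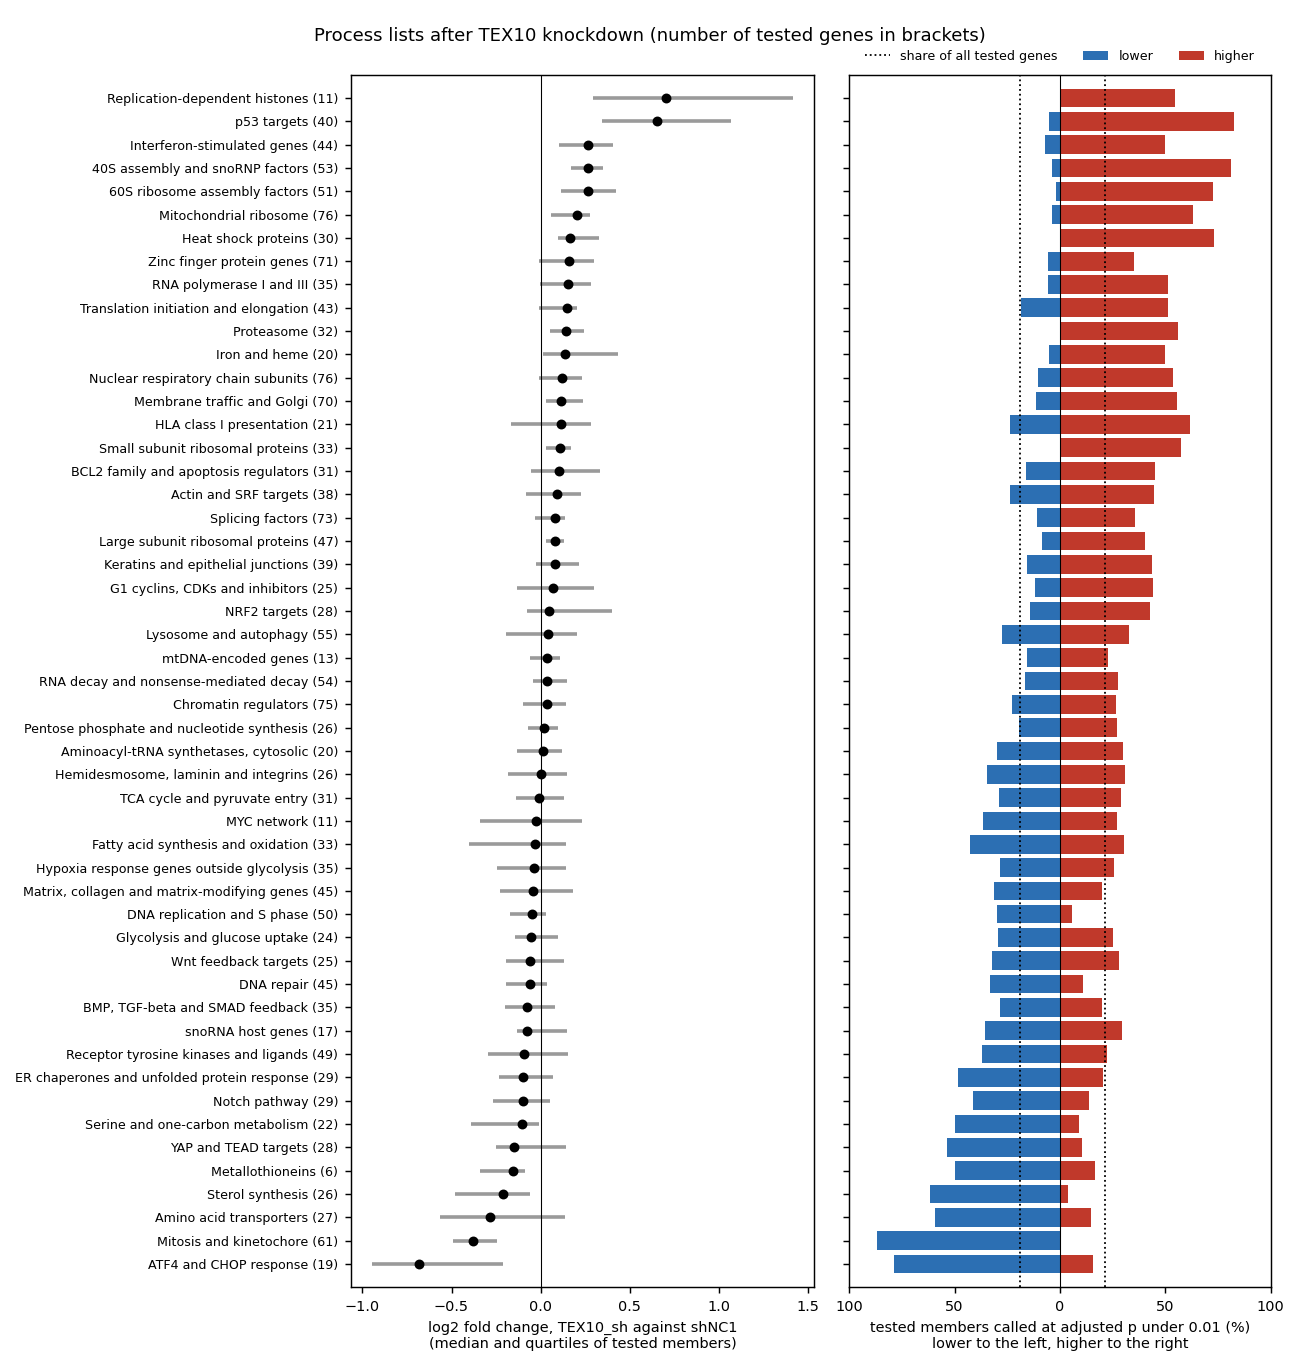
Left, the median (points) and quartiles (bars) of the log2 fold change of TEX10_sh against shNC1 in each process list, with the number of tested genes in brackets. Right, the percentage of tested members that were lower (blue) or higher (red) at an adjusted p under 0.01; dotted lines mark the shares of all tested genes, 19.0% lower and 21.6% higher. Histone genes and p53 targets lie at the top, followed by interferon-stimulated genes and ribosome assembly factors, and the ATF4 and CHOP response, mitosis and amino acid transporters at the bottom.

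The p53 target genes rose. Of 40 tested members 33 (82.5%) were higher and 2 were lower, and 23 of them rose by at least 1.5-fold; the median log2 fold change was 0.65. CDKN1A, which encodes the CDK inhibitor p21, was at 226, 234 and 232 CPM in shNC1 and 760.1, 817 and 777 CPM in TEX10_sh. All knockdown libraries lay more than 3 times above the controls (log2 fold change 1.77, SE 0.03, limma adjusted p = 4.82e-16). MDM2, the ubiquitin ligase of p53 and itself a p53 target, was at 152, 157 and 147 CPM against 339, 378 and 341 CPM. It more than doubled, without overlap between the groups (log2 fold change 1.21, SE 0.04, limma adjusted p = 9.8e-13).

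The p53 targets that rose have several roles. Among genes of cell death, the receptor gene FAS went from 11.8, 11.8 and 11.4 CPM to 31.4, 35.6 and 31.0 CPM, and the decoy receptor gene TNFRSF10C from 4.97, 4.34 and 5.27 CPM to 13.2, 13.1 and 13.0 CPM. Neither overlapped between the groups (log2 fold changes 1.44 and 1.35). TP53I3, an oxidoreductase gene, was at 14.3, 12.6 and 14.3 CPM against 40.7, 48.2 and 46.3 CPM, a rise of 1.68. In further members, the log2 fold change was 1.03 for ZMAT3, an RNA-binding regulator, 1.08 for the mTORC1 inhibitor SESN1, 0.75 for the p53-induced ribonucleotide reductase subunit RRM2B, 0.74 for PPM1D, a phosphatase that dampens p53 signaling, and 0.46 and 0.44 for the DNA damage sensors XPC and DDB2. The members that did not pass included PMAIP1 (0.08), which encodes the BH3 protein NOXA, and SESN2 (0.03). The members that were lower were the phospholipid transfer protein gene PLTP (-0.77) and TNFAIP8. In the shNC2 libraries, scaled separately, the median of this list lay only 0.07 above shNC1, and in 30 of the 40 genes every TEX10_sh library lay above every library of both controls.

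**Figure D2:**
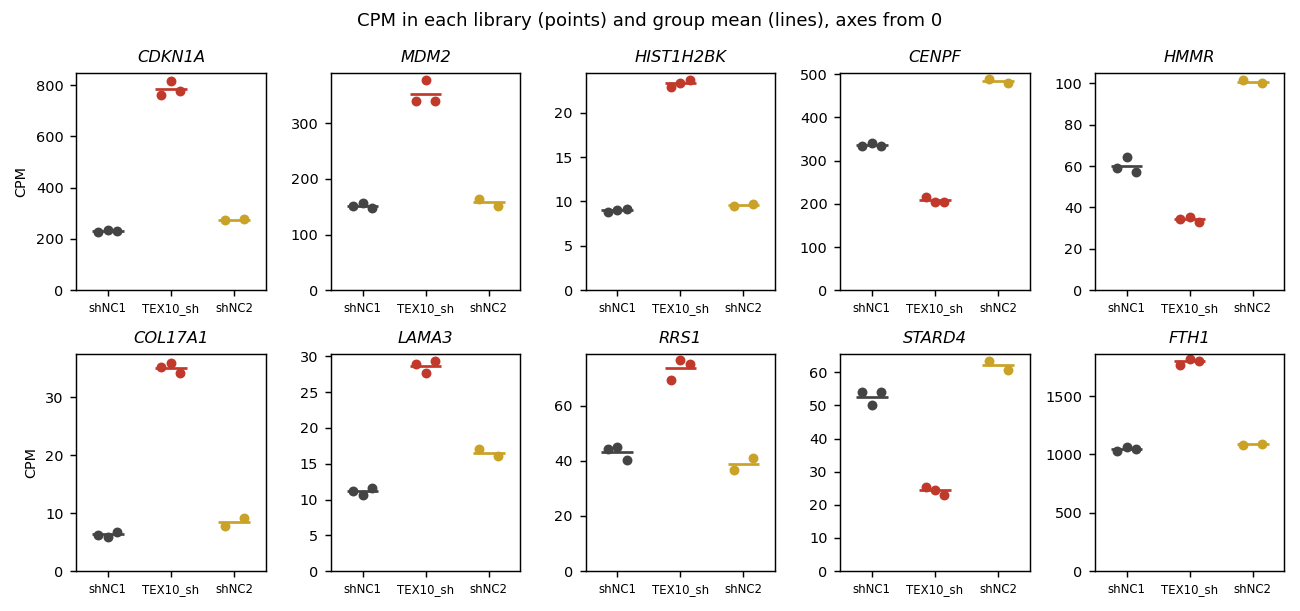
CPM in each library (points) and the group mean (lines) of 10 genes in shNC1, TEX10_sh and shNC2 cells, each axis starting at 0; shNC2 was sequenced and scaled with the other experiment. In all 10 genes the TEX10_sh points lie apart from those of both controls, above them in CDKN1A, MDM2, HIST1H2BK, COL17A1, LAMA3, RRS1 and FTH1 and below them in CENPF, HMMR and STARD4.

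Regulators of apoptosis rose more often than they fell, with 14 of 31 higher and 5 lower (3 lower without TEX10_sh replicate 3). The pore-forming BAX was at 48.6, 47.3 and 46.6 CPM in shNC1 and 79.6, 86.1 and 88.5 CPM in TEX10_sh, without overlap (log2 fold change 0.83). Its BH3-only activator BBC3, also called PUMA, rose by 0.60 and BIK by 0.88 on the log2 scale. Some inhibitors of apoptosis moved the other way. MCL1 went from 211, 212 and 224 CPM to 168, 174 and 175 CPM and XIAP, which blocks caspases, fell by 0.33, whereas CFLAR, the inhibitor of death receptor signaling, rose by 0.47. BCL2 itself was at a log2 fold change of 0.02 and did not pass.

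Among G1 regulators, 11 of 25 were higher and 3 lower, with a median of 0.07 that ran from 0.004 without shNC1 replicate 3 to 0.13 without shNC1 replicate 2; shNC2 lay 0.09 from shNC1. CCND1, which encodes cyclin D1, was at 567, 590.4 and 557 CPM in shNC1 and 952, 983 and 963 CPM in TEX10_sh. Its rise of 0.76 on the log2 scale (SE 0.03, limma adjusted p = 5.07e-12) came without overlap and beside that of CDKN1A. The kinase genes CDK4 (0.37) and CDK6 (0.47), the phosphatase gene CDC25A (0.51) and the cyclin E genes CCNE1 (0.26) and CCNE2 (0.52) rose as well. The CDK inhibitor gene CDKN1C went from 14.9, 13.8 and 15.2 CPM to 6.39, 7.16 and 6.31 CPM (log2 fold change -1.09), and RBL2, a pocket protein of quiescent cells, fell by 0.42. E2F1 was at -0.17 and did not pass.

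Mitotic genes fell almost throughout. Of 61 tested genes of mitosis and the kinetochore 53 (86.9%) were lower and none was higher, against 19.0% lower among all tested genes; the median log2 fold change was -0.38 and the range -0.80 to 0.00. CENPF, a protein of the outer kinetochore, was at 333, 342 and 333 CPM in shNC1 and 216, 204 and 205 CPM in TEX10_sh. HMMR, which organizes the spindle, was at 58.9, 64.2 and 57.0 CPM against 34.7, 35.3 and 33.0 CPM. In both, the knockdown libraries all lay under the controls (log2 fold changes -0.69, SE 0.03, and -0.80, SE 0.05). The falls spanned the stages of cell division: the G2 to M phosphatase CDC25C (-0.76), the mitotic cyclins CCNB1 (-0.42) and CCNA2 (-0.35), the kinase PLK1 (-0.38), the checkpoint kinases BUB1 (-0.43) and TTK (-0.46), the kinetochore subunit NUF2 (-0.57), the centromeric histone CENPA (-0.60), the condensin subunit NCAPD2 (-0.53), and PRC1 (-0.65), KIF20A (-0.60) and ANLN (-0.49) of cytokinesis. The proliferation marker MKI67 fell by 0.52. The 8 members that did not pass were CENPM, CENPI, CDCA5, NCAPH, CENPK, CDCA8, CDC25B and BUB3.

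In the shNC2 controls the same genes stood higher than in shNC1, by a median of 0.58 on the log2 scale, so the control groups differed from each other by more than the knockdown differed from shNC1. In 55 of the 61 genes, every TEX10_sh library still lay below every library of both controls. Experiment and control group cannot be told apart in this difference between controls.

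Genes of DNA replication moved less than those of mitosis. In a list of 50 members, 15 fell, 3 rose and 32 missed the threshold, with a median log2 fold change of -0.05. The counts rested on single libraries: without shNC1 replicate 3, 23 members were lower, and without shNC1 replicate 2, 12 were lower and 8 higher with a median of 0.01. Thymidine kinase (TK1) went from 221, 226 and 204 CPM to 157, 157 and 159 CPM, and CDT1, which loads the MCM helicase, from 100.3, 106 and 93.4 CPM to 82.0, 76.7 and 80.5 CPM. Both lay lower in every knockdown library. Most subunits of the MCM helicase did not pass: MCM7 fell by 0.22, and MCM2 to MCM6 did not pass, with values of -0.09 to -0.03. PCNA, the sliding clamp and a p53 target as well, rose from 213, 229.7 and 195 CPM to 244, 244 and 248 CPM, but was at 261 and 251 CPM in shNC2. The median of the replication list in shNC2 lay 0.22 above shNC1 and that of the repair list 0.11, so the controls differed from each other by more than the knockdown differed from shNC1. In DNA repair, 15 of 45 were lower and 5 higher (9 lower without shNC1 replicate 2, and 3 higher without TEX10_sh replicate 1 or shNC1 replicate 3). BRCA2, which acts in homologous recombination, fell by 0.38, whereas LIG4 of end joining rose by 0.40.

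The promoters of the mitotic genes were searched for CCAAT boxes, the element bound by NF-Y, which is known for its place in promoters of G2 and M phase genes. RefSeq promoters of build GRCh38.p14, from 250 bases before to 50 bases after each start, were matched to 11467 of the 17257 tested genes (66.4%) by symbol. CCAAT followed by CA, GA or CG, on either strand, were in 20.2% of these genes, in 23 of 51 mitotic genes with a promoter (45.1%), in 21 of the 45 that fell and in 2 of the 6 that did not pass. The same letters were also in 16 of 43 DNA replication genes (37.2%), most of which did not pass the test, and in 11 of 32 p53 targets (34.4%), which rose. The stretches around the match in the 6 mitotic genes with the largest falls that held one are shown 5′ to 3′ on the strand of the gene, with the CCAAT letters or their reverse complement in capitals. Positions count from the start, which is 1.
CDC25C (chr5:138332041-138332107, - strand, match at -200): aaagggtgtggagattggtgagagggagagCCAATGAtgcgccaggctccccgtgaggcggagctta
ASPM (chr1:197146769-197146835, - strand, first of 4 matches at -136): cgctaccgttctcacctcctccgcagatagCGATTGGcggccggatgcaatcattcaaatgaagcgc
CENPF (chr1:214603071-214603137, + strand, match at -94): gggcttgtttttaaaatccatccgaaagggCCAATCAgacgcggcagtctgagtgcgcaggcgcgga
PRC1 (chr15:90994552-90994618, - strand, match at -53): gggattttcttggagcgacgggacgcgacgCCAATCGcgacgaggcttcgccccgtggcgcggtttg
KIF14 (chr1:200620737-200620803, - strand, match at -22): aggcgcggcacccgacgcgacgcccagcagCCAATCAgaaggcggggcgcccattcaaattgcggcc
CENPA (chr2:26785894-26785960, + strand, match at -132): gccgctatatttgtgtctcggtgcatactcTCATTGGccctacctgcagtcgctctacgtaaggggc

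Histone genes, which encode the proteins that package replicating DNA, rose. Of 24 listed replication-dependent histone genes 11 were expressed highly enough to be tested. A low gene could enter the test through the group where it was higher. Of the 11 tested genes 6 were higher and none lower, with a median of 0.70 (0.44 without shNC1 replicate 1 and 0.46 without shNC1 replicate 2). Over all alternatives the median ran from 0.13 to 1.52 and the number of higher genes from 4 to 6. HIST1H2BK was at 8.87, 9.07 and 9.11 CPM in shNC1 and 22.9, 23.3 and 23.7 CPM in TEX10_sh, and HIST1H2AC at 2.69, 2.69 and 2.84 CPM against 8.96, 8.30 and 8.95 CPM. HIST1H2BD and the linker histone gene HIST1H1C rose by 1.54 and 1.52. All 4 lay higher in every knockdown library, at low levels. Most replication-dependent histone mRNAs end without a poly(A) tail, and how the beads captured mRNA is not given in the sources used here. The histone genes of a cluster are also near-identical in sequence, so that the split of reads between them is uncertain.

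**Figure D3:**
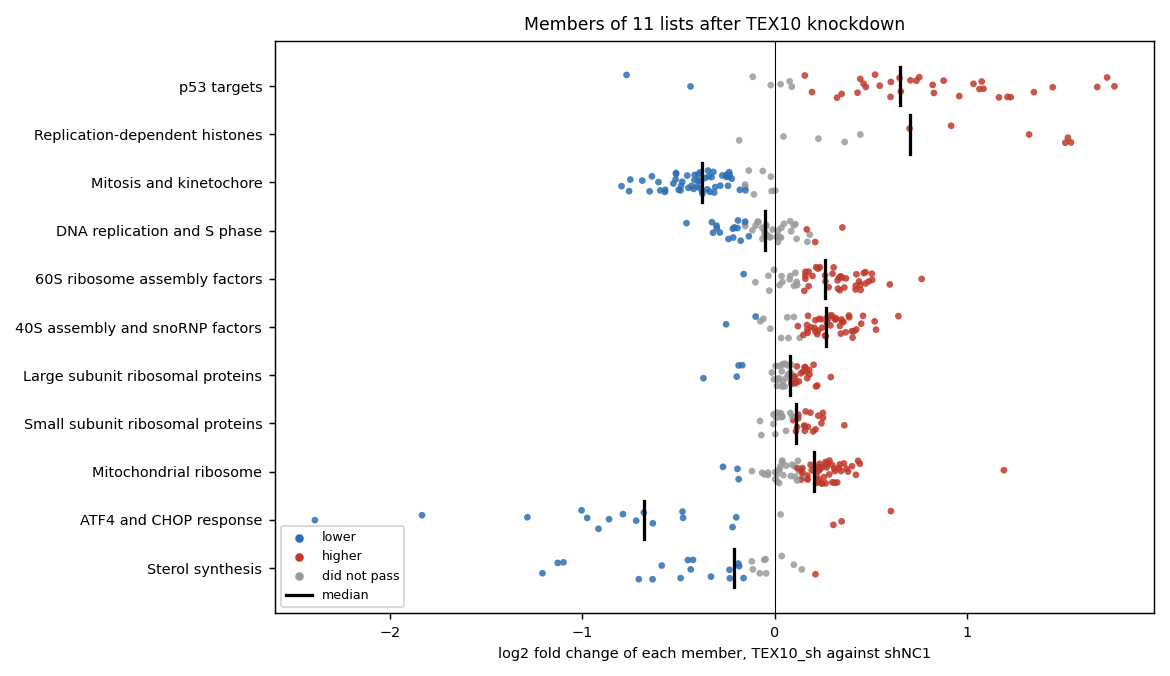
Log2 fold change of every tested member (points) of 11 lists, TEX10_sh against shNC1, coloured by the call at an adjusted p under 0.01, with the median of the list as a bar. The p53 targets and assembly factors lie mostly to the right of 0 and the mitotic and ATF4 genes to the left, while ribosomal protein genes stay near 0.

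Factors of ribosome assembly rose in both subunit pathways. Of 51 tested factors of the 60S subunit 37 (72.5%) were higher and 1 lower, with a median log2 fold change of 0.26; of 53 factors of the 40S subunit and of small nucleolar ribonucleoproteins 43 (81.1%) were higher and 2 lower, with a median of 0.26 (1 lower without any 1 library but shNC1 replicate 3). Their sizes were small, as only 2 and 1 members, respectively, passed 1.5-fold. RRS1, which brings the 5S particle with RPL5 and RPL11 to the pre-60S subunit, was at 44.4, 45.0 and 40.3 CPM in shNC1 and 69.4, 76.7 and 75.1 CPM in TEX10_sh. PES1, of the PeBoW complex that acts in pre-rRNA processing, was at 147, 152 and 137 CPM against 201, 205 and 199 CPM. Neither overlapped between the groups (log2 fold changes 0.76, SE 0.05, and 0.47, SE 0.04). The late factors SBDS and EIF6, which meet on the 60S subunit before it joins translation, rose by 0.51 and 0.42, and the GTPase gene LSG1 of the export adaptor's release by 0.45. The PES1 partners BOP1 (0.11) and WDR12 (0.08) did not pass.

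On the side of the small subunit, KRR1, a factor of the early processome, was at 157 ± 2.7 CPM in shNC1 and 226 ± 1.66 CPM in TEX10_sh (mean ± SD, n = 3), and the export factor RRP12 at 79.6, 81.5 and 76.6 CPM against 105, 107 and 113 CPM. Both lay higher in every knockdown library (log2 fold changes 0.53, limma adjusted p = 1.95e-10, and 0.45). NOL6 (0.64), PNO1 (0.52), LTV1 (0.42), BYSL (0.39) and HEATR1 (0.32), which act between early processing and late maturation, rose too. The core proteins of the guide RNA particles divided. FBL, the methyltransferase of box C/D particles, fell from 214, 216 and 205 CPM to 173, 177 and 183 CPM, and its partner NOP56 rose by 0.30 while NOP58 (0.10) did not pass. DKC1, the pseudouridine synthase of box H/ACA particles, rose by 0.17. The nucleolar chaperone NPM1 was at 1487, 1561 and 1488 CPM against 1399, 1417 and 1418 CPM, a fall of 0.10 that was lost in 6 of the alternatives.

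In the shNC2 controls, the medians of the 60S and 40S lists lay -0.07 and -0.08 from shNC1. In 38 of 51 and 44 of 53 genes every TEX10_sh library lay above every library of both controls. The letters CACGTG, the core of the E-box that MYC binds with MAX, were in 12 of 42 promoters of the 60S list (28.6%) and in 19 of 45 of the 40S list (42.2%), against 12.3% of all. Among the 60S genes they were in 6 of the 31 that rose and in 5 of the 10 that did not pass, and among the 40S genes in 16 of the 37 that rose and in 2 of the 6 that did not pass. MYC itself was at a log2 fold change of -0.03 and did not pass. In its network, the repressors MNT (-0.52) and MXD3 (-0.44) and the paralog MYCL (-0.54) fell, and MXD4 (0.38) and the common partner MAX (0.28) rose.

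Subunits and factors of RNA polymerases I and III rose in 18 of 35 cases and fell in 2, with a median of 0.15. POLR1A, the largest subunit of polymerase I, was at 149.7, 152 and 144 CPM in shNC1 and 185, 197 and 196 CPM in TEX10_sh. The groups stood apart (log2 fold change 0.37). POLR1B, the next largest subunit, rose by 0.36 and the polymerase I factor RRN3 by 0.28. MAF1, the repressor of polymerase III, fell from 103, 104 and 101 CPM to 83.6, 84.9 and 83.9 CPM. UBTF, which opens rDNA chromatin, was at 0.01 and did not pass. Of 17 host genes of small nucleolar RNAs, 6 were lower, such as SNHG3 (-0.32), and 5 higher, such as ZFAS1 (0.26), with 3 higher without TEX10_sh replicate 2 or 3 or shNC1 replicate 1 or 3; their median lay -0.21 from shNC1 in shNC2, against -0.08 after knockdown.

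Genes of the ribosomal proteins themselves moved by less. Of 47 of the large subunit 19 (40.4%) were higher and 4 lower, with a median of 0.08. Of 33 of the small subunit 19 (57.6%) were higher and none lower, with a median of 0.11. None reached 1.5-fold. Among tested genes of the highest mean level 36.7% were higher, so the share of the large subunit was near that of genes at its level. RPL11 was at 679, 681 and 674 CPM in shNC1 and 794, 787 and 788 CPM in TEX10_sh, while its partner RPL5 (0.04) did not pass. RPL12 and RPL3 fell, from 928, 928 and 947 CPM to 715, 724 and 729 CPM and from 2487, 2441 and 2516 CPM to 2169, 2160.3 and 2206 CPM. RPS19 of the small subunit went from 616, 619 and 633 CPM to 727, 747 and 749.8 CPM. The groups did not overlap in any of the 4. The shNC2 libraries stood higher than shNC1 in these lists, by medians of 0.12 and 0.14, which exceeds the rise after knockdown, and only 7 and 6 genes stood above all control libraries. Ribosomal protein genes have many processed pseudogenes, so the assignment of their reads is uncertain.

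Of 43 factors of translation initiation and elongation 22 were higher and 8 lower. All 5 subunits of EIF2B, the exchange factor that recycles eIF2, had positive values, and EIF2B1 (0.46), EIF2B2 (0.42) and EIF2B4 (0.42) passed. EIF4G2, a scaffold of cap-independent initiation, was at 834, 856 and 806 CPM in shNC1 and 1078, 1125 and 1059.8 CPM in TEX10_sh. EIF3C rose by 0.53, but has a near-identical copy, so its value is uncertain. PABPC1, the poly(A)-binding protein, fell from 1884, 1914 and 1897 CPM to 1670.1, 1669.6 and 1579.8 CPM and the elongation factor EEF2 by 0.18.

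The response to amino acid limitation fell further than any other list. ATF4 is a transcription factor whose protein is made when eIF2 is phosphorylated, as on amino acid shortage or stress of the endoplasmic reticulum, and DDIT3 encodes its partner CHOP. Of 19 tested genes 15 (79.0%) were lower and 3 higher, with a median log2 fold change of -0.68. CHAC1, which degrades glutathione, was at 31.4, 26.2 and 44.8 CPM in shNC1 and 6.18, 5.65 and 6.01 CPM in TEX10_sh. DDIT3 was at 22.8, 19.3 and 37.1 CPM against 6.85, 6.73 and 6.71 CPM. ASNS, which makes asparagine, was at 202, 193 and 253 CPM against 89.5, 88.0 and 85.5 CPM. The groups did not overlap in any of the 3, and in each the control libraries spread more than the knockdown libraries, with shNC1 replicate 3 highest (log2 fold changes -2.39, SE 0.13; -1.83, SE 0.15; and -1.29, SE 0.07). TRIB3, a pseudokinase that dampens the response, went from 49.5, 48.7 and 70.1 CPM to 30.5, 33.0 and 31.9 CPM, and the cystine carrier SLC7A11 from 117, 107 and 151 CPM to 59.7, 63.7 and 60.9 CPM. ATF4 mRNA itself was at 468, 453 and 503 CPM against 331, 347 and 344 CPM (log2 fold change -0.48). The genes that rose were BBC3, GDF15 (0.35) and ATF5 (0.30), of which BBC3 and GDF15 are in the p53 list too; the libraries of GDF15 overlapped between the groups.

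The size of this fall depended on the controls. Median shifts of the list from the shNC1 mean were -0.08, -0.15 and 0.21 in the shNC1 libraries, -0.63, -0.74 and -0.66 in TEX10_sh and -0.58 and -0.47 in shNC2. Without shNC1 replicate 3, 15 genes were still lower and 3 higher, with a median of -0.62. The shNC2 controls, which are of the other experiment and scaled separately, thus lay nearly as low as the knockdown, by a median of -0.49 from shNC1. CHAC1 was at 4.66 and 4.57 CPM in shNC2, below TEX10_sh, whereas DDIT3 was at 12.2 and 11.6 CPM and ASNS at 99.1 and 95.1 CPM, both above it. In 9 of the 19 genes every TEX10_sh library lay below every library of both controls. In 6 the mean of TEX10_sh lay between the means of the control groups, and in 4 of these, CHAC1, TRIB3, SLC7A11 and XPOT, no library of the 3 groups overlapped. Experiment and control group cannot be told apart here.

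**Figure D4:**
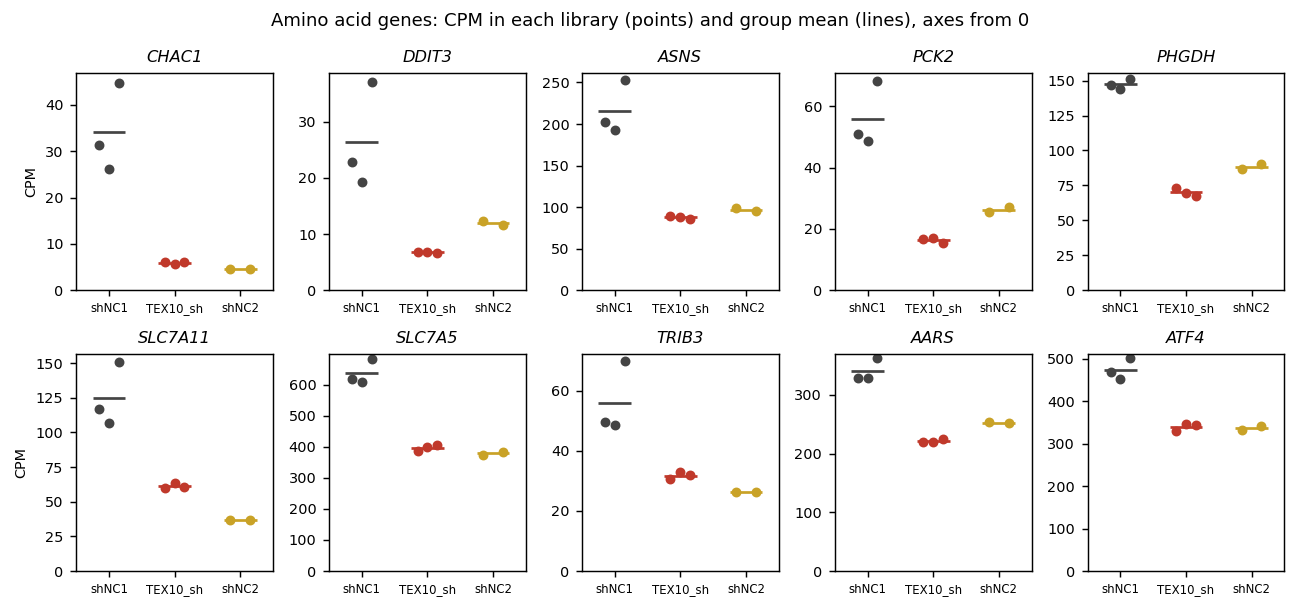
CPM in each library (points) and the group mean (lines) of 10 genes of amino acid metabolism and transport, each axis starting at 0. In all 10 the TEX10_sh points lie below every shNC1 point, and shNC2 lies near or below TEX10_sh in CHAC1, SLC7A11, SLC7A5, TRIB3 and ATF4 and between the groups in DDIT3, ASNS, PCK2, PHGDH and AARS.

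Genes that make serine and feed it into the folate cycle fell with them, with 11 of 22 lower and 2 higher (median -0.11, and -0.05 without shNC1 replicate 2). The shNC2 controls lay as far from shNC1, with a median of -0.10, and 9 of 22 genes were below all control libraries. PHGDH, the entry enzyme of serine synthesis, was at 147, 144 and 151 CPM in shNC1 and 72.8, 69.9 and 67.5 CPM in TEX10_sh. Here the control libraries agreed closely, and the groups did not overlap (log2 fold change -1.07, SE 0.03, limma adjusted p = 9.8e-13); shNC2 lay between them at 86.7 and 90.2 CPM. PSAT1, the next enzyme, fell by 0.79, while PSPH (0.11), the last, did not pass. PCK2, which makes phosphoenolpyruvate in mitochondria, went from 50.9, 48.7 and 68.2 CPM to 16.8, 17.2 and 15.3 CPM. The mitochondrial folate enzymes MTHFD2 (-0.63), ALDH1L2 (-0.77) and SHMT2 (-0.22) fell, whereas the cytosolic MTHFD1 (-0.01) and SHMT1 (-0.01) did not pass.

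Amino acid transporters were lower in 16 of 27 cases and higher in 4, with a median of -0.29 (-0.19 without shNC1 replicate 3). SLC7A5, the exchanger of large neutral amino acids, was at 618, 609 and 683 CPM in shNC1 and 386, 400.5 and 405 CPM in TEX10_sh, and its heavy chain SLC3A2 fell by 0.30. SLC7A1, which carries arginine and lysine, was at 174, 176 and 192 CPM against 109, 112 and 108 CPM. The groups stood apart in both. SLC43A1 (-1.21), a carrier of branched amino acids, SLC1A4 (-0.79) and SLC1A5 (-0.41), which exchange small neutral amino acids and glutamine, fell too. SLC43A2 rose from 25.5, 27.0 and 23.6 CPM to 37.2, 37.7 and 38.0 CPM, and SLC7A6 by 0.54. This list also lay low in shNC2, by a median of -0.26 from shNC1. Of 20 cytosolic aminoacyl-tRNA synthetases, 6 were lower and 6 higher. AARS, for alanine, went from 328, 329 and 362 CPM to 219, 220.0 and 225 CPM, and CARS, for cysteine, fell by 0.50. Both subunits of the phenylalanine enzyme moved the other way, FARSA by 0.47 and FARSB by 0.49. In shNC2 the median of the synthetase list lay -0.19 from shNC1, against 0.01 after knockdown. CARS was at 108.3 and 108.4 CPM in shNC2, near the knockdown.

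ATF4 pairs with C/EBP proteins on the element TGATGNAA (N is any base), which was searched on both strands of the same RefSeq promoters. It was in 2.76% of all genes with a promoter, in 5.59% of those lower and 4.97% of those higher by at least 1.5-fold. In the ATF4 list it was in 5 of 18 genes (27.8%), all of them among the 14 that fell. Of 22 amino acid transporters 6 held it (27.3%), of which SLC1A3 rose. Among serine and one-carbon genes with a promoter, none of the 7 that fell held it, while MTHFD1L, which did not pass, did. Among synthetases it was in AARS and CARS, which fell, and in IARS, MARS, NARS and TARS, which did not pass; none of the 6 with a promoter that rose held it. Windows are shown of 9 genes that fell, the 5 of the ATF4 list and 4 transporters. They were picked because they hold the element, and run 5′ to 3′ on the strand of the gene. SLC38A1, AARS and CARS also fell with a match and are not shown. The element or its reverse complement is in capitals.
CHAC1 (chr15:40953232-40953299, + strand, match at -209): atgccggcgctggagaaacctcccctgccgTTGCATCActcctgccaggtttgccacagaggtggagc
ASNS (chr7:97872439-97872506, - strand, match at -68): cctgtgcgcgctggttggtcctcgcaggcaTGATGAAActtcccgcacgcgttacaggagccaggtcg
ATF3 (chr1:212565186-212565253, + strand, match at -191): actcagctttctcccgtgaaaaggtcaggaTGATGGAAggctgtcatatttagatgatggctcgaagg
JDP2 (chr14:75427976-75428043, + strand, match at -16): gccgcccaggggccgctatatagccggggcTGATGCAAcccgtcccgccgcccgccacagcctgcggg
CEBPG (chr19:33374041-33374108, + strand, match at -42): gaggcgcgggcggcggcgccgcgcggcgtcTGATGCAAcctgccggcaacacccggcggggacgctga
SLC1A4 (chr2:64989362-64989429, + strand, match at -7): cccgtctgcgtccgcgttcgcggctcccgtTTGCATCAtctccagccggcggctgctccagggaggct
SLC7A1 (chr13:29595644-29595711, - strand, match at 8): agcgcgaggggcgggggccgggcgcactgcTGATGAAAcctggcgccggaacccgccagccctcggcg
SLC1A5 (chr19:46784874-46784941, - strand, match at -97): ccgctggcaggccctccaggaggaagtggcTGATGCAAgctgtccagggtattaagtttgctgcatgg
SLC3A2 (chr11:62881706-62881748, + strand, match at 38): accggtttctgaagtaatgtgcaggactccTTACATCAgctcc
A match is a description of the letters, not of binding, and DDIT3, PCK2 and PHGDH fell without one in this window.

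**Figure D5:**
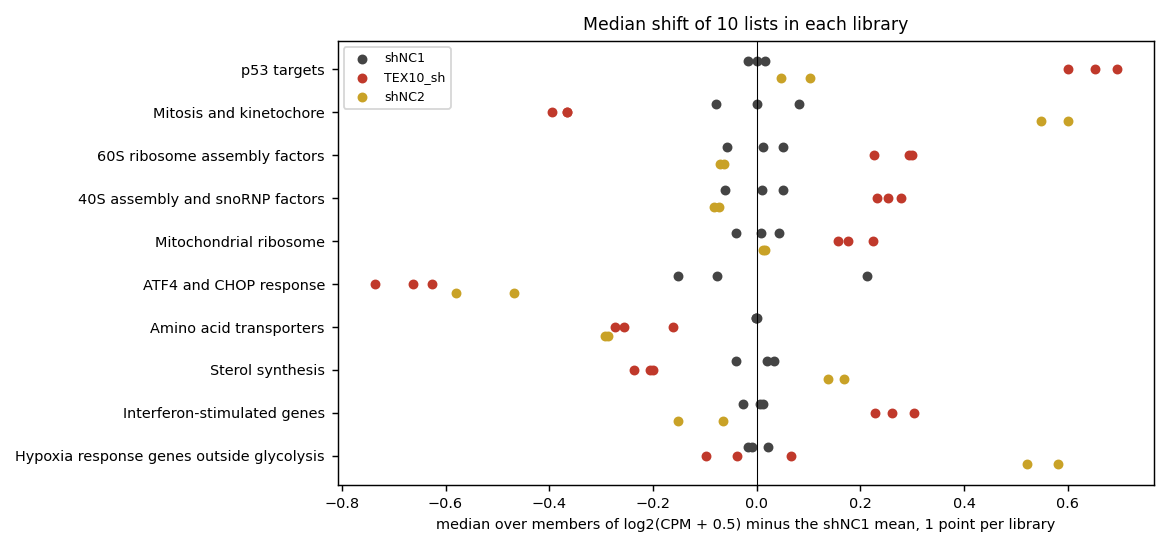
Median over the members of 10 lists of log2(CPM + 0.5) minus the shNC1 mean, with 1 point per library for shNC1 (grey), TEX10_sh (red) and shNC2 (yellow). The shNC2 points lie near shNC1 for p53 targets and ribosome assembly and on the side of TEX10_sh for the ATF4 list and amino acid transporters. They lie on the opposite side for mitosis and sterol synthesis. For hypoxia genes they lie far above shNC1, while the TEX10_sh points fall on both sides of 0.

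Genes of sterol synthesis fell. Of 26 tested 16 (61.5%) were lower and 1 higher, with a median of -0.21. SREBF2, the transcription factor that activates the pathway when cholesterol is low, went from 251, 251 and 251 CPM to 160.5, 153 and 148 CPM, without overlap (log2 fold change -0.71, SE 0.03). The cholesterol carrier STARD4 was at 53.9, 50.1 and 53.9 CPM against 25.5, 24.5 and 23.0 CPM, also without overlap. INSIG1, the sterol-dependent retention factor of SREBP, fell by 1.13. Along the synthesis pathway IDI1 (-0.49), SQLE (-0.45), DHCR7 (-0.42), FDPS (-0.33) and HMGCS1 (-0.24) fell, but CYP51A1 (-0.05) did not pass. In shNC2 the list lay 0.15 above shNC1 by its median, and 18 of 26 genes were lower in every TEX10_sh library than in all control libraries. A sterol regulatory element with the letters TCACNCCAC was in the promoter of SREBF2 and of none of the other 18 genes of the list with a promoter (1.41% of all). A CCAAT box was in 12 of 19 (63.2%, against 20.2% of all). It was in 8 of the 12 that fell, in 3 of the 6 that did not pass and in TM7SF2, which rose. The window of the sterol element in SREBF2 has the element in capitals.
SREBF2 (chr22:41832942-41833010, + strand, match at -133): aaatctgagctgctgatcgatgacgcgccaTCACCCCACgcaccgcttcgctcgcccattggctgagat

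Of 33 genes of fatty acid synthesis and oxidation 14 were lower and 10 higher. SREBF1, the paralog that drives fatty acid synthesis, was at 239, 233 and 239 CPM in shNC1 and 137, 137 and 134 CPM in TEX10_sh, and ACSL3, which activates fatty acids for storage, at 180.2, 185 and 176 CPM against 93.9, 91.5 and 89.1 CPM. Both fell without overlap (log2 fold changes -0.80, SE 0.03, and -0.97, SE 0.03). The desaturases SCD (-0.87), FADS1 (-0.64) and FADS2 (-0.57) and the synthase FASN (-0.23) fell, while ACLY (-0.02) and ACACA (-0.08) did not pass. Among oxidation genes ACADVL rose from 306, 300.3 and 306 CPM to 385, 372 and 394 CPM and CPT1A by 0.24, whereas HADH (-0.46) and ACAA2 (-0.54) fell.

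Nuclear genes of the mitochondrion rose in number but little in size. Of 76 mitochondrial ribosomal protein genes 48 (63.2%) were higher and 3 lower (1 lower without shNC1 replicate 2), with a median of 0.20, and of 76 respiratory chain subunits 41 were higher and 8 lower, with a median of 0.12. MRPS23 was at 102, 113 and 97.4 CPM in shNC1 and 139, 141 and 144 CPM in TEX10_sh. COX7C, a subunit of cytochrome oxidase, was at 105, 109 and 113 CPM against 193, 193 and 204 CPM, the largest rise of the chain (0.85). Complex II moved the other way, with SDHD from 99.4, 94.1 and 91.4 CPM to 62.5, 66.2 and 68.8 CPM and SDHA lower by a log2 fold change of -0.37, while SDHB (-0.01) did not pass. MRPL30 had the largest value of the ribosomal list, 1.19, at low levels that overlapped between the groups (1.41, 0.418 and 1.66 CPM against 1.58, 4.29 and 4.02 CPM). Among the 13 transcripts of mitochondrial DNA, 2 were lower and 3 higher (1 lower without TEX10_sh replicate 1 or 3 or shNC1 replicate 2 or 3), with MT-ND1 from 1843, 1944 and 1779 CPM to 2591, 2613 and 2359.9 CPM. In central metabolism 9 of 31 genes of the citrate cycle and pyruvate entry were lower and 9 higher; the NADP-dependent IDH2 fell by 0.67 and the pyruvate carrier subunit MPC1 rose by 0.73. Glycolysis had 7 lower and 6 higher of 24, and its median in shNC2 lay 0.39 above shNC1. The glucose transporter SLC2A1 rose from 355, 342 and 349.7 CPM to 507, 477 and 476 CPM, and SLC2A3 fell from 16.4, 14.4 and 18.6 CPM to 9.77, 8.75 and 8.59 CPM. The shNC2 controls stood far higher in SLC2A3, at 57.5 and 61.2 CPM. Of 26 genes of the pentose phosphate pathway and nucleotide synthesis 5 were lower and 7 higher (4 higher without TEX10_sh replicate 2 or 3), among the latter UMPS of pyrimidine synthesis (0.40).

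Genes of iron handling and of the antioxidant response rose in part. FTH1, the ferritin heavy chain that stores iron, was at 1034, 1065 and 1048 CPM in shNC1 and 1770.5, 1822 and 1803 CPM in TEX10_sh (log2 fold change 0.78, SE 0.03, limma adjusted p = 1.95e-12). The heme oxygenase HMOX1 was at 20.4, 21.8 and 22.3 CPM against 43.8, 40.9 and 41.1 CPM. Neither overlapped between the groups, whereas the light chain FTL (0.01) did not pass. The transferrin receptor TFRC (0.44) and the heme enzymes ALAS1 (0.39), UROD (0.44) and CPOX (0.43) rose, so that 10 of 20 genes of iron and heme were higher and 1 lower. Of 28 NRF2 targets 12 were higher and 4 lower. The export pump ABCC2 rose from 183, 168 and 179.6 CPM to 327, 325 and 328 CPM and the glutathione synthesis subunit GCLM by 0.59. In shNC2, ABCC2 was at 88.0 and 88.3 CPM, below both groups. GCLC (-0.09) and TXN (0.05) did not pass, and the largest fall was that of SLC7A11. The metallothionein MT2A, which binds zinc and copper, fell from 221, 238 and 251 CPM to 133, 129.7 and 143 CPM. Of 6 genes of its list 3 were lower and 1 higher (1 lower without TEX10_sh replicate 2 or shNC1 replicate 1), and metallothionein genes resemble each other closely.

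Cytosolic chaperones and the proteasome rose, and chaperones of the endoplasmic reticulum did not follow. Of 30 heat shock protein genes 22 (73.3%) were higher and none lower, with a median of 0.16. DNAJA1, a cochaperone of HSP70, was at 185, 202 and 168 CPM in shNC1 and 277, 283 and 299 CPM in TEX10_sh, and DNAJB1 at 136, 146 and 130.5 CPM against 189, 190.3 and 197 CPM. In shNC2, DNAJB1 was at 229 and 231 CPM, above the knockdown. The constitutive HSP70 gene HSPA8 rose by 0.61. The inducible HSPA1A (1.14) and HSPA1B (0.88) rose as well but are near-identical, so the split of reads between them is uncertain. HSP90AA1 (0.06) did not pass. Of 32 proteasome subunits 18 were higher and none lower, led by PSMC4 of the ATPase ring, which went from 88.1, 87.6 and 82.5 CPM to 129, 128 and 129 CPM. Among chaperones of the endoplasmic reticulum and genes of the unfolded protein response 14 of 29 were lower and 6 higher (3 higher without shNC1 replicate 1). XBP1, its transcription factor, went from 62.3, 62.0 and 61.7 CPM to 47.5, 48.0 and 47.4 CPM, and the sensor gene ERN1 fell by 0.38. The main chaperone HSPA5 (0.00) did not pass. CALR rose by 0.26, but was at 883 and 880 CPM in shNC2, near the knockdown. Lysosome and autophagy genes had 15 lower and 18 higher of 55: the membrane protein LAMP1 (-0.38) and cathepsin B (-0.36) fell, and the proton pump subunit ATP6V1A (0.61) and GABARAP (0.54) of the autophagosome rose. In membrane traffic 39 of 70 were higher and 8 lower (3 lower without TEX10_sh replicate 2 or shNC1 replicate 1, and 5 without TEX10_sh replicate 1 or 3 or shNC1 replicate 2), from the SNARE VAMP8 (0.59) to the GTPase ARF1 (-0.36).

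In the ranking by size, which took genes averaging 5 CPM or more and left out NF-kB and early response genes, the largest rise was that of an adhesion gene. COL17A1, a transmembrane collagen of the hemidesmosome, the junction that ties keratin to the basement membrane, was at 6.27, 5.94 and 6.75 CPM in shNC1 and 35.1, 35.9 and 34.2 CPM in TEX10_sh. The groups lay more than 5 times apart (log2 fold change 2.39, SE 0.06, limma adjusted p = 1.37e-13), and shNC2 was at 7.77 and 9.07 CPM. Of the laminin chains of the basement membrane, LAMA3 rose from 11.1, 10.6 and 11.7 CPM to 28.9, 27.7 and 29.4 CPM and LAMB3 by 0.65. The cytoskeletal linker PLEC rose by 0.46, while the integrin chains of the junction fell, ITGB4 from 674, 685 and 698 CPM to 539, 531 and 565 CPM and ITGA6 by 0.17, and DST (-0.09) did not pass. ITGB4 was at 518 and 563 CPM in shNC2, near the knockdown. In the whole list of 26 genes 9 were lower and 8 higher (6 lower without shNC1 replicate 1). ITGB5 (-0.37) and ITGB3 (-0.72), which pair with the alpha v chain, fell, and the alpha v chain ITGAV (0.00) did not pass.

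Keratins and junctions had 17 of 39 genes higher and 6 lower. KRT19 was at 739, 736 and 735 CPM against 1069.7, 1072 and 1109 CPM without overlap, but shNC2 was at 1013 and 1046 CPM, near the knockdown. The desmosomal cadherin DSC2 rose by 0.51 and E-cadherin (CDH1) by 0.17, and the polarity protein PARD6B fell by 0.66. Matrix genes had 14 lower and 9 higher of 45; the cross-linking enzyme TGM2 went from 31.2, 30.2 and 31.8 CPM to 15.8, 16.2 and 17.5 CPM and SPARC, a collagen-binding protein, fell by 0.96, whereas the neighbouring basement membrane chains COL4A5 and COL4A6 rose by 0.44 and 0.90. Among actin and SRF target genes 17 of 38 were higher and 9 lower (6 lower without TEX10_sh replicate 1 or shNC1 replicate 2). FHL2, a LIM protein, was at 53.1, 50.7 and 56.3 CPM against 106, 114 and 113 CPM, apart in every library, and the myosin light chain MYL12A fell from 169, 164 and 176 CPM to 112, 106 and 111 CPM. The actin genes themselves moved in opposite directions, ACTB by 0.22 and ACTG1 by -0.36.

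In signaling lists the falls outnumbered the rises, but only by little in the Wnt, BMP and hypoxia lists. Leaving out 1 library gave 7 to 8 lower and 5 to 8 higher Wnt genes. For hypoxia genes it gave 8 to 10 lower and 8 to 9 higher. YAP and TEAD targets were lower in 15 of 28 cases and higher in 3 (9 lower without TEX10_sh replicate 2). Their median lay -0.15 from shNC1 after knockdown and -0.19 from it in shNC2, and 8 of 28 genes were below all control libraries. AMOT, a scaffold that holds YAP in the cytoplasm, went from 27.0, 27.5 and 28.9 CPM to 16.5, 15.3 and 16.6 CPM. CTGF, the usual readout of YAP, fell by 0.92, and YAP1 itself rose by 0.25. Of 29 Notch genes 12 were lower and 4 higher, with HES1, its target, at -0.32 and the coactivator MAML2 at -0.66. Of 49 receptor tyrosine kinases and ligands 18 were lower and 11 higher. IGF1R was at 40.2, 37.5 and 39.0 CPM against 26.2, 23.4 and 24.4 CPM, and INSR (-0.49), EGFR (-0.38) and ERBB3 (-0.35) fell too, while the ephrin receptor EPHA4 rose from 3.87, 3.58 and 4.26 CPM to 8.04, 7.76 and 8.79 CPM. Wnt feedback genes had 8 lower and 7 higher of 25: AXIN2, the usual readout of beta-catenin, rose by 0.32 and NOTUM, which inactivates Wnt, fell from 35.2, 34.2 and 35.6 CPM to 22.2, 22.0 and 21.9 CPM. NOTUM was at 22.6 and 25.8 CPM in shNC2, and the Wnt list lay -0.14 from shNC1 there, against -0.06 after knockdown. In BMP and TGF-beta signaling 10 of 35 were lower and 7 higher, with the ligand BMP4 at 0.48 and the corepressor SKIL at -0.57. Of 35 hypoxia genes outside glycolysis 10 were lower and 9 higher, and their median in shNC2 lay 0.55 above shNC1, far from both groups.

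Interferon-stimulated genes rose in part. Of 44 tested 22 were higher and 3 lower, with a median of 0.27. SAMD9, an antiviral factor, was at 19.4, 18.9 and 19.1 CPM in shNC1 and 33.8, 32.3 and 35.0 CPM in TEX10_sh, and LGALS3BP, a secreted glycoprotein, at 304, 301 and 299.6 CPM against 393, 390.1 and 393 CPM. The groups did not overlap in either. The RNA sensors IFIH1 (0.64) and DDX58 (0.40), the IFIT genes IFIT1 to IFIT3 (0.52 to 0.60) and ISG15 (0.48) rose, and TRIM22, also a p53 target, by 1.67. STAT2 (0.00) and MX1 (-0.15) did not pass and IRF7 fell by 0.60. In presentation by HLA class I 13 of 21 were higher and 5 lower (8 higher without TEX10_sh replicate 3): the peptide transporter TAP1 went from 55.8, 52.3 and 55.1 CPM to 75.5, 74.9 and 76.4 CPM, whereas HLA-E fell by 0.47. Reads of HLA genes depend on the alleles of the line and on their similarity, so these values are uncertain.

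In RNA processing, 26 of 73 splicing factors were higher and 8 lower (34 higher without shNC1 replicate 2 and 16 without TEX10_sh replicate 3). SRSF8 was at 27.0, 24.9 and 25.7 CPM in shNC1 and 62.7, 66.4 and 65.8 CPM in TEX10_sh, far from the other members, and HNRNPA1 fell from 1640.5, 1691 and 1645 CPM to 1285, 1275 and 1273 CPM. RNA decay had 15 of 54 higher (27.8%) and 9 lower (16.7%), and chromatin regulators 20 of 75 higher (26.7%) and 17 lower (22.7%). These shares were near the 21.6% higher and 19.0% lower of all tested genes. In RNA decay the deadenylase subunits CNOT6L (-0.66) and PAN2 (-0.47) fell and the exosome subunits EXOSC4 (0.55) and EXOSC6 (0.29) rose. Among chromatin regulators the helicase SMARCA2 rose from 16.1, 16.8 and 16.2 CPM to 28.7, 28.0 and 27.4 CPM. The methyltransferase gene WHSC1 (-0.41) and EZH2 (-0.16) fell. Of 71 zinc finger protein genes 25 were higher and 4 lower (1 to 2 lower without any 1 of TEX10_sh replicates 1 to 3 or shNC1 replicates 1 and 2), with a median of 0.16; ZNF33B went from 20.2, 19.8 and 20.8 CPM to 27.3, 28.8 and 26.0 CPM.

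Other genes among the largest changes lay outside most lists. NRP1, a coreceptor of VEGF and semaphorins, rose from 2.30, 2.77 and 2.28 CPM to 11.1, 10.7 and 9.99 CPM, CPA4, a carboxypeptidase gene, from 9.71, 10.8 and 10.4 CPM to 38.0, 37.5 and 42.3 CPM, and GALNT5, which starts O-glycans, from 12.5, 13.4 and 13.2 CPM to 39.3, 41.6 and 43.1 CPM. All 3 stood apart in every library (log2 fold changes 1.91, 1.88 and 1.62). RP11-611O2, a noncoding RNA gene by its name in the files, rose by 1.41. Among the falls, SERINC1, a membrane protein gene, went from 94.3 ± 4.19 to 39.4 ± 0.488 CPM (mean ± SD, n = 3), and the intermediate filament gene NES from 52.0, 54.4 and 48.7 CPM to 21.6, 21.4 and 21.5 CPM. The knockdown libraries agreed closely in both (log2 fold changes -1.25 and -1.25). ZC3H6 (-1.43), the noncoding LINC00263 (-1.42), the mucin gene MUC12 (-1.31), the dehydrogenase gene DHRS2 (-1.30) and the transcription factor gene FOXL1 (-1.27) fell too. In shNC2, DHRS2 was at 39.6 and 40.9 CPM, above both groups, as were ZC3H6 (21.3 and 22.4 CPM) and FOXL1 (10.3 and 9.97 CPM). LINC00263 (24.8 and 26.9 CPM) and MUC12 (10.2 and 12.2 CPM) lay between the groups there. SLC5A3, which carries myo-inositol, was at 52.8, 52.2 and 53.2 CPM against 8.36, 16.2 and 7.05 CPM under ENSG00000198743 (log2 fold change -2.36), but under ENSG00000272962, which has the same symbol, it was at 26.0, 28.8 and 27.5 CPM against 43.1, 35.1 and 46.6 CPM (0.58). The direction of the gene is therefore uncertain.

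The calls were spread over the genome and followed gene type and level. Of 13669 protein-coding genes 21.7% were lower and 25.6% higher, against 10.1% and 6.31% of 666 long intergenic noncoding RNAs. Of 5 bins of mean level, genes in the highest were lower in 23.6% and higher in 36.7%, and those in the lowest in 5.27% and 3.24%. The median log2 fold change of single chromosomes ran from -0.04 to 0.03.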

How the data were processed

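RNA of HCT116 cells was extracted with TRIzol, mRNA was captured on magnetic beads and TruSeq libraries were sequenced. The authors deposited 1 table of CPM per library; the submitters' processing notes name STAR 2.4.2a, RSEM 1.2.29, edgeR 3.8.5 and build hg19. All values were whole multiples of 1 read within 0.01 reads, so whole reads were recovered. Genes with at least 10 reads in enough libraries (filterByExpr, minimum total 15) were tested on log2(CPM + 0.5) with limma 3.58.1 (trend, 6 libraries, R 4.3.3) at a Benjamini-Hochberg adjusted p under 0.01. Fold changes are on that scale and understate low genes. Alternatives used edgeR 4.0.16 and DESeq2 1.42.0 on the recovered reads. The scripts were tested on simulated data.

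Genes were named by rule: TEX10; the 12 largest rises and falls at a mean of at least 5 CPM, without NF-kB and early response genes; and up to 2 called members per direction of each list. Further members were named to account for a list and chosen after their values were seen. Members and lists were chosen with earlier results of these data known. The replicate numbers did not pair the libraries. Promoters are those of RefSeq GRCh38.p14, matched by symbol; the reads were mapped to hg19.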

Additional observations from a re-analysis of the deposited data

How the results depend on the processing

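The 3272 lower and 3732 higher genes became 547 and 409 when a difference of at least 1.5-fold was also required. Leaving out 1 library gave 2700 to 3237 lower and 3107 to 3675 higher genes, and a log2 fold change of TEX10 from -1.20 to -1.15. DESeq2 called 3037 lower and 3346 higher, edgeR's quasi-likelihood test 3455 and 3673, and scaling by library totals, which moved the split toward falls, 3794 and 3320. The replicate block called 3140 and 3590. After the group mean of each gene was subtracted, same-numbered libraries correlated at 0.0218, 0.0383 and -0.0208, so the numbers did not pair them. Of 3248 values of the 203 named genes beside TEX10 under alternatives, 3222 stayed on the same side of the threshold, 26 calls were lost and 0 turned direction. The calls lost were of DDX54, MRPS6, MT-CO2, MT-ND4L, MT1X, NPM1, SENP3 and ZNF213. With 3 libraries per group and the sequenced hairpin not named, differences specific to a hairpin could not be separated from those of TEX10.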
